A study of Mus musculus with 7 samples.

Results

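Cytosolic ribosomal protein genes encode the proteins that, with ribosomal RNA, build the 40S (small) and 60S (large) subunits of the ribosome in the cytoplasm. Genes were taken by symbol (Rps or Rpl followed by a number and at most the letter a, l or x, plus Rpsa, Rplp0, Rplp1 and Rplp2) and by a mean of at least 10 estimated counts over the 7 libraries. Of 22248 genes in the table, 80 had such a symbol and 77 reached the minimum. Of these, 31 encode small subunit and 46 large subunit proteins. The 3 genes below the minimum are paralogs: Rpl3l, best known from muscle, averaged 7 counts, Rpl39l averaged 0.571, and Rpl10l, known from testis, had 0 counts in every library.

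RNA came from hippocampal synaptoneurosomes, a fraction of nerve terminals that keep part of the postsynaptic side, of wild-type C57Bl/6J female mice. AM6545 was given sub-chronically for 4 libraries (replicates B, D, E, F), and Vehicle for 3 (replicates B, D, E). This compound blocks the cannabinoid receptor encoded by Cnr1 and enters the brain poorly. The labels give no age, dose, treatment length or count of mice behind a library, so p-values measure only the spread between these libraries, which may be technical. Libraries held 19174649 to 25894733 estimated counts.

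Ribosomal protein mRNAs are short, abundant and made in near-balanced amounts. They belong to the TOP class of mRNAs, which start with a cytosine followed by a run of pyrimidines and whose translation depends on mTOR and the binding protein LARP1. In neurons many of them are found in dendrites and axons, where some of their proteins can join ribosomes locally. A synaptoneurosome also carries pieces of glia, and in such bulk RNA fewer cell pieces of a type and less RNA per piece cannot be told apart.

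A run of pyrimidines of the TOP kind can be seen in the genome sequence close to some annotated start sites. In the windows below CTTTCC, in capitals, begins within 5 bases of the RefSeq start site (GRCm38.p6, gene strand, 5′ to 3′). They are the 5 of this kind with the smallest p in the comparison. Start sites on a single chromosome were left out of this choice.
Rpl38, chr11:114668568-114668597, plus strand: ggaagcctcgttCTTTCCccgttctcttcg
Rps27, chr3:90213630-90213659, minus strand: ccgctttcgctcCTTTCCggcggtgacgac
Rpl18, chr7:45718062-45718091, plus strand: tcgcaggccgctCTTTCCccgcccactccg
Rps10, chr17:27635223-27635252, minus strand: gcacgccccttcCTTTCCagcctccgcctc
Rpl28, chr7:4792955-4792984, plus strand: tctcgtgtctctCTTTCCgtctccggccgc

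Counting the start site as base 1, CTTTCC began at base 1 in Rpl38, base 2 in Rps27, base 3 in Rpl28, base 4 in Rpl18 and base 5 in Rps10. Base 1 was a C in these genes except Rpl18, where it was a G, so that annotated start is not a TOP start. RefSeq promoter entries (250 bases before to 50 bases after a start) were found for 57 of the 77 genes, with 68 start sites. Within 50 bases on either side of the start, CTTTCC on the gene strand was in 30.9% of these 68, in 4.69% of all 32851 promoters and in 4.17% of the 14623 promoters of genes tested here. The related run CTTTTC was in 14.7%, 3.69% and 2.94% of these sets. In the whole window and on either strand, CCGGAAG, a core of ETS family sites, was in 36.8%, 8.86% and 15.3%, and AAGATGGC, a core of the YY1 site, in 10.3%, 2.75% and 3.88%. TATAAA, the core of the TATA box, was in 8.82%, below the 13.6% of all promoters and above the 7.43% of those of tested genes. None of these letters shows that a factor binds.

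Coding sequence shows which genes a short read can separate. Rps27 (metallopanstimulin) has a paralog, Rps27l, and a retrotransposed copy, Rps27rt. The 255 coding bases of Rps27rt are the same as those of Rps27. Capitals in Rps27l mark its 61 bases that differ from Rps27, which leave 76.1% identity and no identical stretch longer than 11 bases. Rpl41, the shortest ribosomal protein, has only 25 codons before its stop. The sequences are from GENCODE M21 transcripts (GRCm38).
Rps27, chr3:90212725-90213615, minus strand: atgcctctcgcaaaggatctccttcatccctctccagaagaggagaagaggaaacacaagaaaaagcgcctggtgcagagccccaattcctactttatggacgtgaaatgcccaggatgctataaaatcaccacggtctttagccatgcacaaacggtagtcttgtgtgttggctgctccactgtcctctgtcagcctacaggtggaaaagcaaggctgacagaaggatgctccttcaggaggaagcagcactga
Rps27l, chr9:66946175-66949357, plus strand: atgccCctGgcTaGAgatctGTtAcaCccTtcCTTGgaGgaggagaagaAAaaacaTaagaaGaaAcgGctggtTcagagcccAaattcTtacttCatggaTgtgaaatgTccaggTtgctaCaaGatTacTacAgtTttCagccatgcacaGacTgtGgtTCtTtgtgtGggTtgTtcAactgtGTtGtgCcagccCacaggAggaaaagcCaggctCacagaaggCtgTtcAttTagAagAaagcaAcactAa
Rpl41, chr10:128548387-128548960, minus strand: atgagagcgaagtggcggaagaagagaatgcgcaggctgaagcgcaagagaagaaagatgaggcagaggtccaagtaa

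The comparison of AM6545 with Vehicle asks whether the levels of these mRNAs in the synaptic fraction differ between treatments. All 77 genes had a lower fitted level in AM6545, and none passed an adjusted p under 0.05. The median log2 fold change was -0.47, a level 27.7% below Vehicle, with quartiles of -0.52 and -0.37, beside a median of 0.01 over all 14654 genes tested. Over all genes tested, 48.6% had a negative fold change. In edgeR's quasi-likelihood test 71 of the 77 genes were lower at an unadjusted p under 0.05, where 8.7% of all genes were. Among other genes with short transcripts the share was higher, 56.6% up to 750 bases and 21.1% from 750 to 1500 bases. Over all genes, 0.00682% (1 gene, no ribosomal protein gene) passed an adjusted p under 0.05. For 63 of the 77, every AM6545 library lay below every Vehicle library, as it did for 7.19% of all genes. The 77 genes were measured in the same 7 libraries and are not independent of one another.

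Other tools gave other calls. In DESeq2, 31 of the 77 genes were lower at an adjusted p under 0.05, against 1.65% of the genes to which it gave an adjusted p. In limma-voom with quality weights 8 were (Rps29, Rps26, Rps28, Rps23, Rpl38, Rplp1, Rps25 and Rpl23a), against 0.594% of all genes, and the median was -0.32.

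Vehicle replicate B stood apart. It was the highest of the 7 libraries for 76 of the 77 genes, the exception being Rpl4. Relative to the mean of the AM6545 libraries, its median was 0.77 higher on the log2 scale, whereas replicates D and E were 0.28 and 0.27 higher. Without Vehicle replicate B all 77 genes were still lower in AM6545, with a median of -0.26, and 51 were lower at an unadjusted p under 0.05, against 3.69% of all genes. Leaving out Vehicle replicate E instead gave 56 genes lower at an adjusted p under 0.05, against 4.07% of all genes, with a median of -0.54.

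The share of library counts on the 77 genes, which needs no scaling between libraries, was 0.525%, 0.553%, 0.510% and 0.575% in AM6545 replicates B, D, E and F. It was 0.810%, 0.639% and 0.616% in Vehicle replicates B, D and E. The groups did not overlap, and the means were 0.541% ± 0.0290 (SD, n = 4) and 0.688% ± 0.106 (SD, n = 3), a difference of -0.147 percentage points, or -0.0866 without Vehicle replicate B. Mitochondrially encoded genes, which took 5.07% to 6.66% of counts in AM6545 and 6.11% to 9.82% in Vehicle, were also highest in Vehicle replicate B. Without them in the total the difference was -0.172 percentage points.

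**Figure D1:**
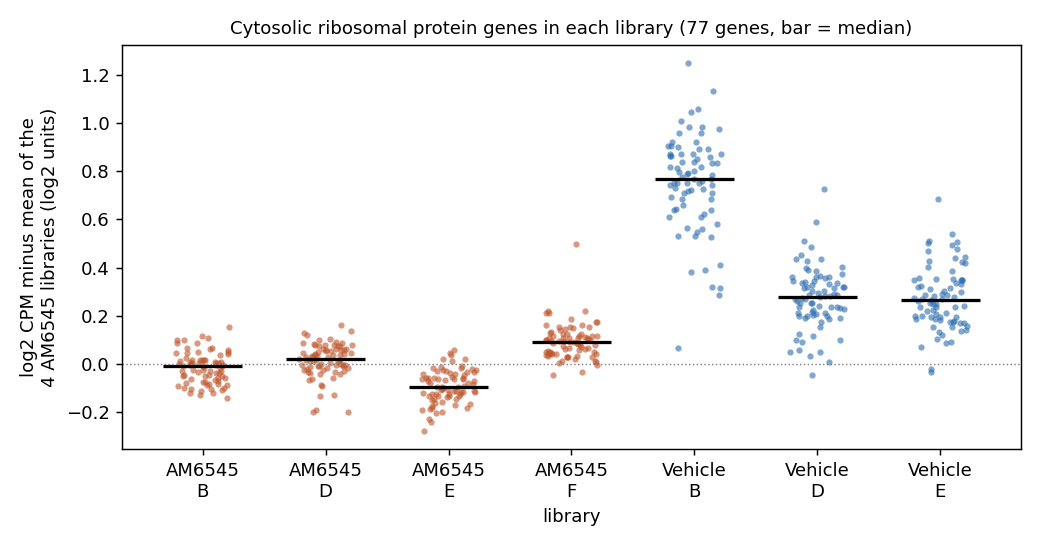
Each point is 1 of 77 ribosomal protein genes in 1 library, as its log2 CPM minus its mean over the 4 AM6545 libraries (y axis, log2 units); bars are medians. Vehicle replicate B is highest with a median of 0.77, Vehicle replicates D and E have medians of 0.28 and 0.27, and the AM6545 medians lie between -0.10 and 0.09.

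Transcript length and base composition moved with the result. Across the 77 genes the log2 fold change was closer to 0 in longer transcripts (Spearman's rho 0.65 across genes, n = 77, given as a description since all points share the 7 libraries). The 26 shortest genes had a median of -0.54, the 25 of middle length -0.48 and the 26 longest -0.36. Other genes as short also had lower levels in AM6545. Of 325 other genes with transcripts of up to 750 bases, 92.3% had a negative fold change and their median was -0.41, beside -0.52 for the 37 ribosomal protein genes of that length. Between 750 and 1500 bases, 1910 other genes had a median of -0.17, beside -0.41 for 33 ribosomal protein genes. At an unadjusted p under 0.05 in edgeR, 56.6% of the other genes up to 750 bases were lower, beside all 37 ribosomal protein genes. Between 750 and 1500 bases 21.1% of the other genes were, beside 30 of the 33. For GC content, each gene's level was taken relative to its mean over the 7 libraries. The slope of this relative level was negative in every AM6545 library (-0.12 to -0.03 log2 units per 10 percentage points). It was positive in every Vehicle library (0.05 to 0.13). Being relative, such slopes must be positive in some libraries where they are negative in others, so they show only differences between libraries.

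After each library was corrected for GC content and transcript length by its own trend, 68 of the 77 genes were lower in AM6545. The median was then -0.11, and 17 were lower at an unadjusted p under 0.05, beside 4.47% of all genes. The median of the 26 shortest genes was then -0.06 and that of the 26 longest -0.17. Whether the trend reflects the treatment or the libraries was not tested, and the treatment and these properties of the libraries cannot be told apart here.

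**Figure D2:**
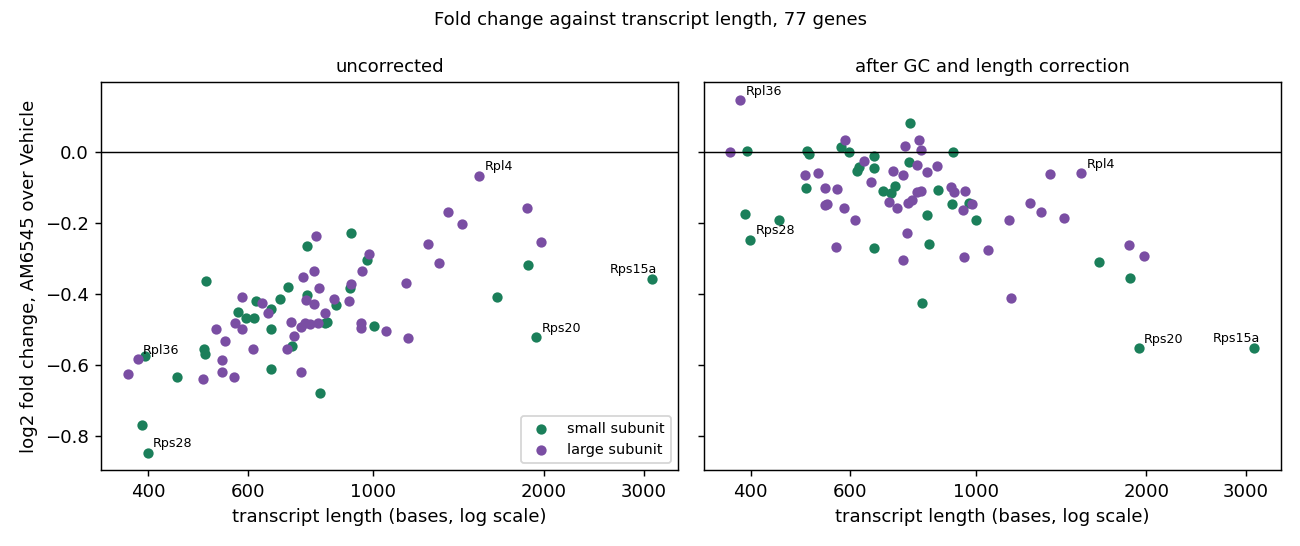
The log2 fold change of AM6545 over Vehicle (y axis) against transcript length in bases (x axis, log scale) for 77 genes, uncorrected on the left and corrected for GC content and length on the right; each point is 1 gene. On the left short genes such as Rps28 (-0.85) are lowest and Rpl4 (-0.07) is near 0; on the right most points lie near 0, with Rps20 and Rps15a at -0.55.

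Small and large subunit genes had the same median, -0.47. Of the 31 small subunit genes, 30 were lower at an unadjusted p under 0.05, and of the 46 large subunit genes 41. Over all genes 8.7% were, with 56.6% of other genes up to 750 bases and 21.1% from 750 to 1500 bases. Fold changes spanned -0.85 to -0.23 in the small and -0.64 to -0.07 in the large subunit. Small subunit genes took 32.8% to 34.3% of the ribosomal protein counts in AM6545 and 33.4% to 35.1% in Vehicle, ranges that overlap. With each gene weighted equally, the mean log2 CPM of small minus large subunit genes was -0.37 to -0.32 in AM6545 and -0.32 to -0.28 in Vehicle, ranges that lay next to each other without overlap. After the GC and length correction the medians were both -0.11.

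**Figure D3:**
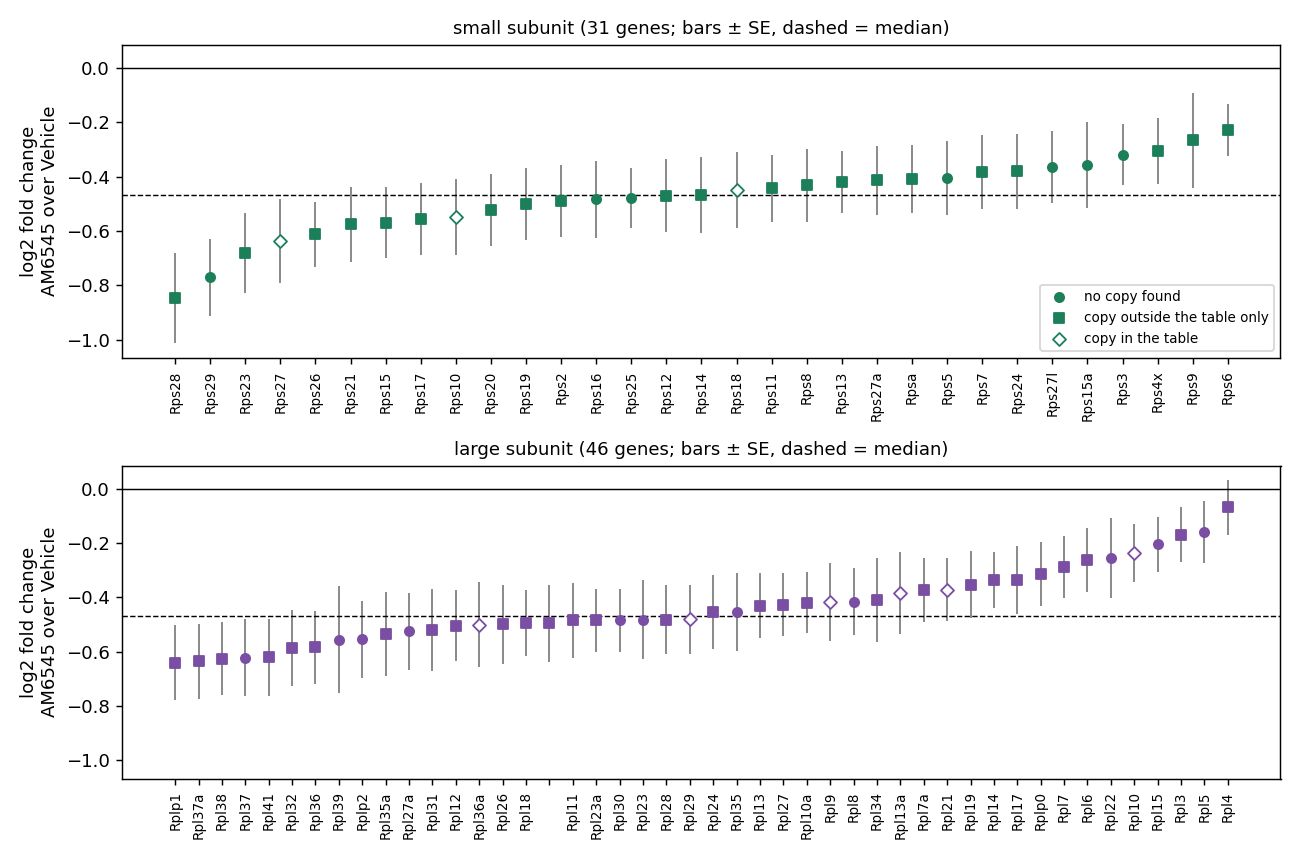
Log2 fold change of AM6545 over Vehicle with its standard error (y axis) for each of 31 small subunit genes (top) and 46 large subunit genes (bottom), ordered by value; symbols mark genes with a copy in the table, with a copy outside it only, or with none. All points lie below 0, and both dashed medians are at -0.47.

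Among small subunit genes, the smallest p-values were those of Rps29, Rps26, Rps28, Rps23 and Rps25. Rps29 (chr12:69157722-69159186, minus strand, GRCm38), a small zinc-binding protein of the 40S head, had 33.7, 35, 34.1 and 39.2 CPM in AM6545 replicates B, D, E and F. In Vehicle replicates B, D and E it had 77.7, 53.3 and 50.4 CPM. The 4 AM6545 values lay close together and all 3 Vehicle values lay above them. The group means were 35.5 ± 2.55 (SD, n = 4) and 60.5 ± 15 CPM (SD, n = 3), a log2 fold change of -0.77 ± 0.14 (SE; edgeR adjusted p 0.199). It was -0.55 without Vehicle replicate B and -0.18 after the GC and length correction.

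Rps28 (chr17:33819027-33824562, minus strand), which lies near the mRNA exit channel, had the largest difference. It had 13.2, 14.2, 12 and 15.4 CPM in AM6545 and 32.4, 22.5 and 18.9 CPM in Vehicle, again with no overlap. The log2 fold change was -0.85 ± 0.17 (SE; edgeR adjusted p 0.199), -0.60 without Vehicle replicate B and -0.25 after the correction. Rps26 (chr10:128624534-128626747, minus strand), which contacts mRNA upstream of the start codon, had 22.7 to 26 CPM in AM6545 and 44.1, 33.8 and 32.8 CPM in Vehicle. Its groups did not overlap, and its log2 fold change was -0.61 ± 0.12 (SE; edgeR adjusted p 0.199).

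Rps23 (chr13:90922958-90924950, plus strand), a protein of the decoding centre, had 36 to 41.9 CPM in AM6545 and 82.7, 56.6 and 51.9 CPM in Vehicle. It is 805 bases long, near the middle of the set, and its fold change of -0.68 stayed at -0.43 after the correction. Rps25, needed for initiation at some internal entry sites, had 47.8 to 52.4 CPM in AM6545 and 59.8 to 79.2 CPM in Vehicle. Its log2 fold change was -0.48, and -0.26 after the correction. In these genes, picked by their p in this same comparison, no AM6545 library reached a Vehicle library. The same held for 28 of the 31 small subunit genes, beside 7.19% of all genes.

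Rps6 (chr4:86854660-86857412, minus strand), the 40S protein phosphorylated by S6 kinases downstream of mTOR, had the smallest difference among small subunit genes. It had 161, 172, 156 and 171 CPM in AM6545 and 214, 180 and 186 CPM in Vehicle. The groups did not overlap, but the log2 fold change was only -0.23 ± 0.10 (SE; edgeR adjusted p 0.315), and 0.00 to 2 decimals after the correction. Rps15a had 21.1 to 25 CPM in AM6545 and 37.5, 26.3 and 22 CPM in Vehicle, so the groups overlapped. Its count-weighted transcript length of 3103 bases was the greatest of the set.

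Rps9 (chr7:3703993-3706897, plus strand), which lies at the mRNA entry channel, had the largest p among small subunit genes. It had 117, 114 and 103 CPM in AM6545 replicates B, D and E but 176 CPM in replicate F, beside 180, 143 and 138 CPM in Vehicle. The replicate F value lay within the Vehicle range, and the other 3 lay below it. The log2 fold change was -0.27 ± 0.17 (SE; edgeR adjusted p 0.488), and 0.08 after the correction.

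Rpsa, also known as the laminin receptor precursor, had 118 to 139 CPM in AM6545 and 150 to 215 CPM in Vehicle, a log2 fold change of -0.41 with no overlap, and -0.31 after the correction. Rps14, near the 40S platform, had 84.4 to 101 CPM in AM6545 and 110 to 166 CPM in Vehicle. Its log2 fold change was -0.47 and moved to 0.00 to 2 decimals after the correction. The X-linked Rps4x had 55.4 to 68.0 CPM in AM6545 and 67.6 to 92.1 CPM in Vehicle, with a slight overlap and a log2 fold change of -0.31. Rps20, which had a count-weighted length of 1940 bases, had a log2 fold change of -0.52 and, after the correction, -0.55.

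**Figure D4:**
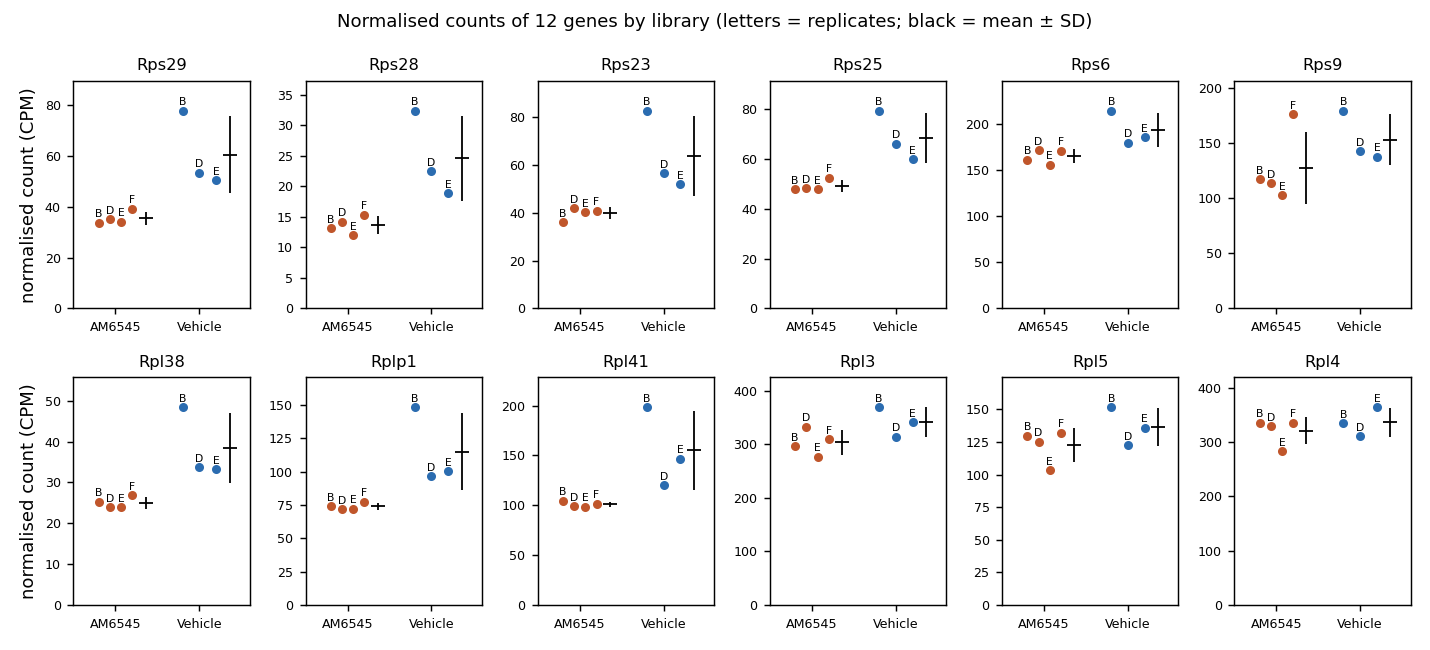
Normalised counts (CPM, y axis from 0) of 12 genes in each library; letters are replicates, and black marks are the mean and SD of 4 AM6545 or 3 Vehicle libraries. Rps29 and Rps28 show AM6545 below Vehicle with no overlap, Rps9 shows AM6545 replicate F at 176 CPM, and Rpl4 shows overlapping groups.

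Among large subunit genes the smallest p-values were those of Rpl38, Rplp1, Rpl37a, Rpl41 and Rpl37. Rpl38 (chr11:114668524-114672331, plus strand), known for its part in translating Hox mRNAs in the embryo, had 25.2, 23.9, 23.9 and 26.8 CPM in AM6545 and 48.4, 33.7 and 33.3 CPM in Vehicle. The groups did not overlap, with an SD of 1.37 CPM in AM6545 and 8.63 CPM in Vehicle. The log2 fold change was -0.63 ± 0.13 (SE; edgeR adjusted p 0.199), and 0.00 to 2 decimals after the correction. Rpl38 was the shortest gene of the set, at 368 bases.

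Rpl41 (chr10:128548114-128549305, minus strand), whose coding sequence is shown above, had 104, 99.0, 98.6 and 102 CPM in AM6545 and 199, 120 and 147 CPM in Vehicle. The AM6545 values were nearly equal and the Vehicle values were widely spread. Its log2 fold change was -0.62 ± 0.14 (SE; edgeR adjusted p 0.199), -0.40 without Vehicle replicate B and -0.10 after the correction. Rpl37a and Rpl37, zinc-binding proteins of the 60S subunit, had log2 fold changes of -0.64 and -0.62, and -0.27 and -0.30 after the correction.

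The P stalk recruits elongation factors and is made of Rplp0 with copies of Rplp1 and Rplp2. All of its genes were lower in AM6545 with no overlap, beside 7.19% of all genes. Rplp1 (chr9:61913284-61914542, minus strand) had 74.0, 71.8, 72.2 and 77.6 CPM in AM6545 and 149, 96.6 and 100 CPM in Vehicle. Its log2 fold change was -0.64 ± 0.14 (SE; edgeR adjusted p 0.199). Rplp2 had 49.5 to 57.7 CPM against 65.2 to 102 CPM, a log2 fold change of -0.55. Rplp0, the longer scaffold, had 171 to 204 CPM against 208 to 283 CPM, a log2 fold change of -0.31. After the correction the values were -0.06 for Rplp1, -0.14 for Rplp2 and -0.17 for Rplp0.

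Rpl5 and Rpl11 bind 5S ribosomal RNA and, when free of ribosomes, inhibit Mdm2. Rpl11 had 36 to 43.7 CPM in AM6545 and 46.4 to 69.2 CPM in Vehicle, a log2 fold change of -0.48 with no overlap. Rpl5 (chr5:107900502-107909005, plus strand) had 130, 125, 103 and 132 CPM in AM6545 and 152, 123 and 136 CPM in Vehicle. Its groups overlapped and its log2 fold change was -0.16 ± 0.11 (SE; edgeR adjusted p 0.521). After the correction the order turned, with -0.14 for Rpl11 and -0.26 for Rpl5. The difference between the pair was not tested.

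The large subunit genes with the largest p-values were Rpl4, Rpl5 and Rpl3. Rpl4 (chr9:64173375-64178666, plus strand), a protein that lines the exit tunnel, had 336, 330, 283 and 335 CPM in AM6545 and 335, 310 and 364 CPM in Vehicle. Values of both groups were mixed, and the log2 fold change was -0.07 ± 0.10 (SE; edgeR adjusted p 0.771), 0.02 in limma-voom. Rpl3, which reaches the peptidyl transferase centre, had 277 to 333 CPM against 315 to 370 CPM, overlapping, with a log2 fold change of -0.17 (edgeR adjusted p 0.450). Besides Rpl4, Rpl5, Rpl3 and Rps9, the genes with an unadjusted p of 0.05 or more were Rpl22 (-0.25) and Rpl15 (-0.20).

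Levels per transcript length, in CPM per kilobase over all 7 libraries, differed widely within each subunit although a ribosome holds most of these proteins in equal number. In the large subunit they ran from 444 for Rpl13, 237 for Rpl3 and 230 for Rpl41 down to 19.6 for Rpl39 and 16 for Rpl22. In the small subunit they ran from 194 for Rps6 and 181 for Rps14 and Rps9 to 12.7 for Rps20 and 8.06 for Rps15a. The group values kept this order at its ends, at 387 CPM per kilobase for Rpl13 in AM6545 and 521 in Vehicle, against 7.20 and 9.21 for Rps15a. Rps15a and Rps20 had the longest count-weighted transcript lengths among small subunit genes, so their low level per kilobase depends on the isoform estimates.

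Shared sequence can split counts between genes. By alignment of 50% of the transcript length at 95% identity, 9 of the 77 genes shared sequence with another gene in the table, 50 with genes outside it only, and 18 with none. Median fold changes were -0.45, -0.47 and -0.47 in these groups. All 9 genes with a copy in the table were lower at an unadjusted p under 0.05, and 7 did not overlap between groups. Over all genes these shares were 8.7% and 7.19%. Among other short genes 56.6% up to 750 bases and 21.1% from 750 to 1500 bases were lower at that threshold. The 9 genes and their copies were Rps10 (RPS10-NUDT3), Rps18 (Gm10260), Rps27 (Rps27rt), Rpl9 (Rpl9-ps6), Rpl10 (Rpl10-ps3), Rpl13a (Gm45713), Rpl21 (BC004004), Rpl29 (Gm3550) and Rpl36a (Rpl36a-ps1).

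For 6 of these 9 genes the copy took under 10% of the pair's counts in every library, and for Rps27, Rpl10 and Rpl21 it took more. Just under the length limit were Rpl35, aligned over 47.0% to Gm2000, which took 51.1% to 67.1% of the pair's counts, and Rplp2, aligned over 46.4% to Wdr89, which took 10.6% to 15.5%. Rpl35 alone overlapped between groups (log2 fold change -0.45), and the sum with Gm2000 did not (log2 ratio of means -0.47). Rps27 (chr3:90212522-90213651, minus strand) had 14.1, 11.6, 12.3 and 15.5 CPM in AM6545 and 24.9, 16.1 and 21.3 CPM in Vehicle, while Rps27rt had 4.80 to 6.95 CPM in AM6545 and 16.4, 8.18 and 3.03 CPM in Vehicle. The copy's share of the pair ranged from 12.4% to 39.8% within Vehicle alone, and with equal coding sequences only bases outside them can separate the pair. The sum of both was 19.3 ± 0.984 CPM in the 4 AM6545 libraries (SD) and 30 ± 9.80 CPM in the 3 Vehicle libraries (SD), with a log2 ratio of means of -0.64. The paralog Rps27l, induced by p53 in many cells, had 12.2 to 12.8 CPM in AM6545 and 13.6 to 19.4 CPM in Vehicle, a log2 fold change of -0.36 with no overlap.

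Rpl10, whose loading is a last step of 60S maturation, had 43.1 to 49.8 CPM in AM6545 and 50.1 to 62.7 CPM in Vehicle. Its copy Rpl10-ps3 took 33.5% to 39.8% of the pair in AM6545 and 37.7% to 45.0% in Vehicle. The pair summed had a log2 ratio of means of -0.35, beside a fold change of -0.24 for Rpl10 alone. For Rpl21 and BC004004, at 45.5% to 51.6% of the pair, the summed ratio was -0.30 and that of Rpl21 alone -0.37. Summing left 8 of the 9 pairs without overlap between groups, all but Rpl13a with Gm45713. Of all genes, taken singly, 7.19% had every AM6545 library below every Vehicle library.

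Most transcripts of these genes pointed the same way. Of 478 transcripts of the 77 genes, 257 were tested, of which 231 had a lower level in AM6545. In edgeR, 93 were lower at an unadjusted p under 0.05, where 4.5% of all 33962 transcripts were, and 1 was higher. The share of all transcripts with a lower level, and the share higher at that threshold, were not counted. None passed an adjusted p under 0.05 in edgeR, while 15 did in DESeq2, among 384 of all transcripts. For 69 of the genes 1 transcript held at least 50% of the counts, and all 69 such transcripts were lower. Retained-intron transcripts, 57 in number, had a median of -0.37, beside -0.40 for 165 protein-coding ones.

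The lower transcripts with the smallest p were Rps19-210, Rpl6-207 and Rps29-201. Rps19-210, 1 isoform of a gene mutated in Diamond-Blackfan anaemia, was listed at 0 in all AM6545 libraries and at 13.3, 5.08 and 3.31 CPM in Vehicle replicates B, D and E. A 0 in an isoform estimate can be a failed assignment. The retained-intron transcript Rpl6-207 had 3.98 to 5.25 CPM in AM6545 and 7.59 to 10.3 CPM in Vehicle, and Rps29-201, which held nearly all Rps29 counts, followed its gene with a log2 fold change of -0.77.

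Among transcripts with a higher level in AM6545, Rps14-203 (log2 fold change 1.39) and Rpl5-206 (0.37) overlapped between groups.

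Rps24, whose isoforms differ in short exons at the end of the coding sequence, was examined for isoform use. Rps24-202 held 59.5% ± 1.53 (SD, n = 4) of its counts with AM6545 and 62.3% ± 2.72 (SD, n = 3) with Vehicle. Rps24-201 held 16.5% ± 1.49 and 15.5% ± 1.43, Rps24-205 7.84% ± 0.624 and 8.34% ± 1.24, and Rps24-204, a retained-intron form, 6.26% ± 0.653 and 5.52% ± 1.04. Each difference was of the order of the SD, and the gene's own log2 fold change was -0.38 (38.2 to 44.6 CPM against 46.4 to 68.1 CPM).

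Other genes of the pathway were read from lists. Of 8 ribosomal protein genes outside the symbol rule, 6 were lower at an unadjusted p under 0.05 and none higher, with a median of -0.43. They included the ubiquitin-like fusion gene Fau (-0.55) and the paralog Rpl36al (-0.44). Over all genes, 8.7% were lower at that threshold and 5.86% higher. Of 19 non-ribosomal TOP mRNAs, 6 were lower at that threshold and none higher (median -0.14), led by the poly(A)-binding protein gene Pabpc1 (-0.47), the initiation factor gene Eif3k (-0.31) and Tpt1 (-0.29). Mitochondrial ribosomal protein genes, which build a separate ribosome, had 27 of 78 lower and none higher (median -0.18). They were led by Mrps21 (-0.57), Mrpl52 (-0.62) and Mrpl34 (-0.50). After the GC and length correction these 3 medians were -0.07, -0.02 and -0.01, and without Vehicle replicate B they were -0.21, -0.07 and -0.08.

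Other lists hold genes that make or control ribosomes. Of 40 ribosome biogenesis factors, 2 were lower and 4 higher at an unadjusted p under 0.05, with a median of 0.14, beside 8.7% of all genes lower and 5.86% higher. The H/ACA particle genes Nop10 (-0.49) and Nhp2 (-0.33) were lower and the 60S export adaptor gene Nmd3 (0.34) was higher. Of 29 translation initiation factors, none was lower and 3 were higher (median 0.05): Eif4e (0.23), Eif4g2 (0.24) and Eif1ax (0.20). Of 16 regulators of TOP mRNAs, 2 were lower, the translation repressor gene Eif4ebp2 (-0.73) and the mTORC1 subunit gene Rptor (-0.31). Without Vehicle replicate B the median was 0.02 for biogenesis factors and 0.01 for initiation factors. None of the genes on these 3 lists passed an adjusted p under 0.05 in edgeR with all libraries. Of the genes named here, Eif4ebp2 and Nop10 did in DESeq2 (adjusted p 0.0254 and 0.0385). Eif4ebp2 also did in limma-voom (adjusted p 0.0465). Without Vehicle replicate E, Eif4ebp2, Nop10 and Nmd3 did in edgeR. The fold change of Eif4ebp2 was -0.68 after the GC and length correction and -0.43 without Vehicle replicate B.

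Markers of glia and vessels were present in every library. Of 15 microglia markers, 8 were lower at an unadjusted p under 0.05 (median -0.22), where 8.7% of all genes were, led by Tyrobp (-0.65), C1qc (-0.46) and C1qa (-0.47). Their summed level was 1370 to 1501 CPM in AM6545 and 1435 to 1866 CPM in Vehicle. At that threshold the markers lower were 2 of 14 for astrocytes, 1 of 12 for oligodendrocytes, 2 of 10 for excitatory neurons, 2 of 10 for inhibitory neurons, and none of 13 for endothelial and mural cells or of 11 for choroid plexus. All 11 choroid plexus markers nonetheless had a negative fold change, as 48.6% of all genes did. Their median was -0.26, with -0.38 after the GC and length correction and -0.42 without Vehicle replicate B. Of the 13 endothelial and mural markers, 4 had a negative and 9 a positive fold change (median 0.15). Summed choroid plexus markers ran from 1071 to 5219 CPM in AM6545 and 3302 to 5127 CPM in Vehicle. No marker was at 0 in all libraries. The part of these cells in the ribosomal protein result was not tested.

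The median fold change stayed negative in all 20 alternatives, between -0.54 and -0.11. A block for the replicate letter takes the treatment difference from replicates B, D and E alone, since F has no Vehicle library. With this block, 64 of the 77 genes were lower at an unadjusted p under 0.05, beside 5.31% of all genes. So were 52 of their transcripts, beside 2.6% of all transcripts. With the GC and length correction added to the block, 9 genes were, beside 2.21%.

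**Figure D5:**
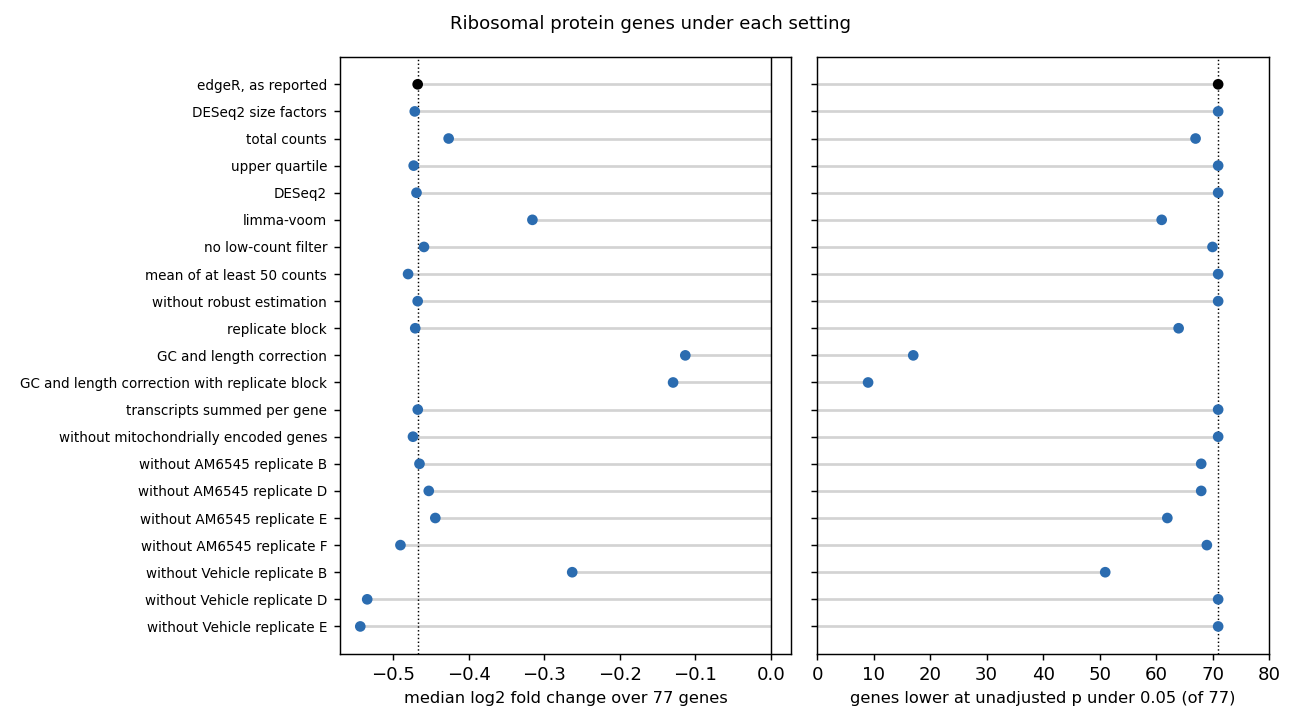
Median log2 fold change over the 77 genes (left x axis) and the number of genes lower at an unadjusted p under 0.05 (right x axis) for the reported fit and 20 alternatives (y axis). The values closest to 0 are those with the GC and length correction (-0.11, and -0.13 with the replicate block), followed by the fit without Vehicle replicate B (-0.26).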

How the data were processed

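Estimated counts per gene (22248) and per transcript were deposited by the authors for 7 libraries, 1 column each and not scaled; 83.5% of gene values above 0 are not whole. The submitters' processing notes name Salmon 1.5.2 and mm10; annotation release and strand use are not given in the sources used here. Symbols, transcript lengths, GC content and coordinates are from GENCODE M21 (GRCm38); 22181 of 22194 matched identifiers carry a higher version than in M21, so lengths may differ from those used for counting. Promoters are from RefSeq.

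Counts were rounded and fitted with edgeR 4.0.16 (limma 3.58.1, R 4.3.3): quasi-likelihood test, TMM, filterByExpr, robust, no covariates, Benjamini-Hochberg adjustment over all 14654 genes or 33962 transcripts tested. All 77 genes passed the filter. CPM are TMM-scaled; SE is the absolute log2 fold change over the square root of F. Level per kilobase is CPM over the count-weighted mean transcript length. Copies were found with blastn 2.17.0. The GC and length correction removed each library's lowess trend (span 0.3). Alternatives were other scalings, DESeq2 1.42.0, limma-voom, other count filters, no robust estimation, a block for the replicate letter, summed transcripts, removal of mitochondrially encoded genes and leaving out each library.

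The genes and lists were chosen with earlier results of these data known. Named were, per subunit, the 5 genes with the smallest and 3 with the largest p, the 3 highest and 2 lowest per kilobase, fixed genes, genes with copies, up to 3 per list, and Rps24 transcripts of at least 5% of its counts; Rpl11, Rpl15, Rpl23a, Rpl35 and Rpl36 were named after their values were seen. Some items that this rule names, or that enter the counts and plots, are not reported here by name. On simulated data with 200 changed genes, edgeR recovered 91% of changes of 1 and 31% of changes of 0.5 on the log2 scale. No libraries of a group agreed within counting noise. Same-lettered libraries did not deviate together.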

Additional observations from a re-analysis of the deposited data

Results flagged for a closer look

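In the group of 4 AM6545 libraries, 1 library lay far from the other 3, by Dixon's criterion at 95%, for 4 of 79 measures compared (77 genes, the share of counts and the small subunit share); chance gives about 1 in 20. Rps25 in AM6545 replicate F had 52.4 CPM beside 47.8 to 48.3 CPM in the others. Rpl23 in AM6545 replicate F had 49.2 CPM beside 44.1 to 44.8 CPM. Rps15a in AM6545 replicate D had 25 CPM beside 21.1 to 21.7 CPM. Rpl4 in AM6545 replicate E had 283 CPM beside 330 to 336 CPM. The AM6545 replicate F value of Rps9 (176 CPM beside 103 to 117 CPM) did not reach the criterion. The group of 3 Vehicle libraries was not examined this way.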

How the results depend on the processing

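All 77 genes kept a negative fold change in 17 of 20 alternatives; the exceptions were limma-voom (76) and the GC and length correction without (68) and with the replicate block (69). Genes called among the 77 at an adjusted p under 0.05 were 0 as reported, 31 in DESeq2 and 8 in limma-voom; among all genes they were 1, 222 and 118, and 2 with a mean of at least 50 counts, 2 without robust estimation and 0 with the GC and length correction. With that correction 17 of the 77 were lower at an unadjusted p under 0.05, and the medians were -0.11 for all, small, large and single genes and -0.10 for genes with a copy in the table. With the correction and the replicate block, 9 were (2.21% of all genes; 4.47% with the correction alone), and the medians were -0.13 for all and single genes, -0.14 for small subunit genes, -0.12 for large subunit genes and -0.14 for genes with a copy. The cause was not tested.

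Leaving out 1 library at a time gave medians of -0.54 to -0.26 for all genes, -0.57 to -0.26 for the small subunit, -0.54 to -0.26 for the large, -0.54 to -0.23 for genes with a copy and -0.55 to -0.26 for single genes. It gave 0 to 56 of the 77 and 0 to 944 of all genes at an adjusted p under 0.05, 51 to 71 of the 77 lower at an unadjusted p, a share difference of -0.183 to -0.0866 percentage points, and 1 to 14 transcripts at an adjusted p under 0.05 with 55 to 106 transcripts of the 77 genes lower at an unadjusted p. The lower end of each range of medians came without Vehicle replicate E, and the end nearest 0 without Vehicle replicate B.

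Among all transcripts, 6 passed an adjusted p under 0.05, 27 without the low-count filter, 0 with the replicate block and 384 in DESeq2, of which 15 were of the 77 genes. The letters B, D and E give no known pairing: deviations of same-lettered libraries correlated at -0.31, -0.14 and -0.24. The replicate block takes the treatment difference from these letters alone, since F has no Vehicle library. With it 64 of the 77 genes were lower at an unadjusted p under 0.05 (5.31% of all genes) with a median of -0.47. Of their transcripts 52 were lower at that threshold (2.6% of all transcripts).

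Signs turned for Rpl4 in limma-voom (0.0210). With the GC and length correction they turned for Rpl10 (0.0318), Rpl13a (0.00419), Rps18 (0.0129), Rps9 (0.0792), Eif3k (0.0254) and Mrpl34 (0.0127), and also for 5 other genes of the 77, of which Rpl36 (0.145) was farthest from 0. With the block added they turned for Rpl10 (0.0521), Rpl13a (0.00923), Rps18 (0.0119), Rps27l (0.0239), Rps6 (0.00212), Eif3k (0.0178), Eif4e (-0.00529) and Mrpl34 (0.0469), and also for 3 other genes of the 77, of which Rpl36 (0.172) was farthest from 0. With 3 and 4 libraries, edgeR recovered 31% of changes of 0.5 on the log2 scale in the simulation. Recovery of a shift shared by many genes, as in the 77, was not tested.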
